A study of Bos taurus with 15 samples.

Results

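Levels of 9 genes of the mucosal surface, out of the 32671 gene entries of an endometrial RNA-seq table, were followed across 3 classes of heifer fertility. The 9 genes are CLCA1, TAP, LYZ2, MSMB, SAA2, PLA2G2F, S100A8, S100A9 and S100A12, taken by their gene names, and each occurs once in the table. They had been picked because earlier work on these libraries showed differences between classes, above all higher levels in Infertile heifers. Those differences are therefore given as descriptions and support nothing: 6 of the 9 stand among the 20 genes of smallest p in 1 or more of the 3 class comparisons. All 9 were among the 19962 genes that passed the filter on low counts. MSMB passed through its Infertile libraries alone, with 5 of 5 above the filter level of 0.215 CPM (the count scaled to library size) and 0 in the other classes, so it had to differ to be tested at all. TAP was above that level in 2 High-fertile, 0 Sub-fertile and 4 Infertile libraries.

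Biopsies of the endometrium, which lines the uterus, came from 15 beef cattle (Bos taurus) sampled at day 14 of pregnancy. There are 5 High-fertile, 5 Sub-fertile and 5 Infertile heifers, and each library came from 1 heifer. Treatment was common to all 3 classes: prostaglandin, gonadotropin-releasing hormone, a progesterone insert and estradiol to bring the heifers into estrus together, with more hormone for heifers that had not shown it, then transfer of an embryo produced in vivo on day 7. The biopsy was cut with forceps after a uterine flush, in the horn on the side of the corpus luteum. The sources used here give neither breed, age nor the way the classes were assigned, nor what the flush recovered. All 3 classes thus had an embryo transferred, and there was no group without a transfer.

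The endometrium is a mucosa: a luminal and glandular epithelium secretes into the lumen and stands against bacteria that enter through the cervix. Such epithelia, and the neutrophils that cross them, make small cationic peptides, enzymes that cut bacterial walls or membranes, proteins that withhold metal ions, and mucus. S100A8 and S100A9 pair to form calprotectin, which binds zinc and manganese and is abundant in neutrophils, and S100A12 (calgranulin C) is a ligand of the receptor AGER. TAP (tracheal antimicrobial peptide) is a bovine beta-defensin, LYZ2 a lysozyme that cuts peptidoglycan, SAA2 an acute phase apolipoprotein, PLA2G2F a secreted phospholipase A2, MSMB (beta-microseminoprotein) a small protein of seminal plasma and mucosal secretions, and CLCA1 a secreted goblet cell protein that processes mucus.

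Library totals ran from 38017136 to 62858724 counts, so that a count of 0 allows a level of up to 0.0491 to 0.0783 CPM (3 counts, counting error only). EPCAM, which marks epithelium, was present at 277 to 776 CPM in all 15 libraries. Infertile 2 (the numbers only name the heifers) held the highest level of the 15 for 15.5% of tested genes and Infertile 5 for 16.6%, against at most 10.04% in any other library. Clustering on the counts of pseudogenes and ribosomal RNA gave sets of 8, 5 and 2 libraries, called technical sets here. Reads of such entries can map to many places. The number of sets was set at 3, and the sample labels name no batch. Whether the sets come from processing was not tested. High-fertile 1 and Infertile 2 make up the set of 2, with 1.09% and 1.21% of counts on pseudogenes against 2.39% to 3.27% elsewhere. The set of 5 holds Sub-fertile 1, 2 and 5 with Infertile 3 and 5, and the set of 8 the rest. Class and set are partly confounded, since no High-fertile library is in the set of 5 and no Sub-fertile library in the set of 2. Results below are given with and without Infertile 2 where it moves them.

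In Infertile endometrium, CLCA1, LYZ2, MSMB, SAA2 and PLA2G2F had higher class levels than in High-fertile endometrium with or without Infertile 2. For TAP and the 3 S100 genes most of the difference came from that library. Sub-fertile endometrium had lower class means than High-fertile endometrium for 8 of the 9, LYZ2 being the exception. For the 3 S100 genes the sign turned without High-fertile 3, to log2 differences of 0.18, 0.25 and 0.16. By class median S100A8 and S100A9 were higher in Sub-fertile heifers. For MSMB the lower mean rested on 6 reads, all in High-fertile 2. None of these differences passed the test across all genes. Every one of the 9 had its highest level in an Infertile heifer, Infertile 2 for 5 genes, Infertile 4 for 2, and Infertile 1 and Infertile 3 for 1 each.

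**Figure D1:**
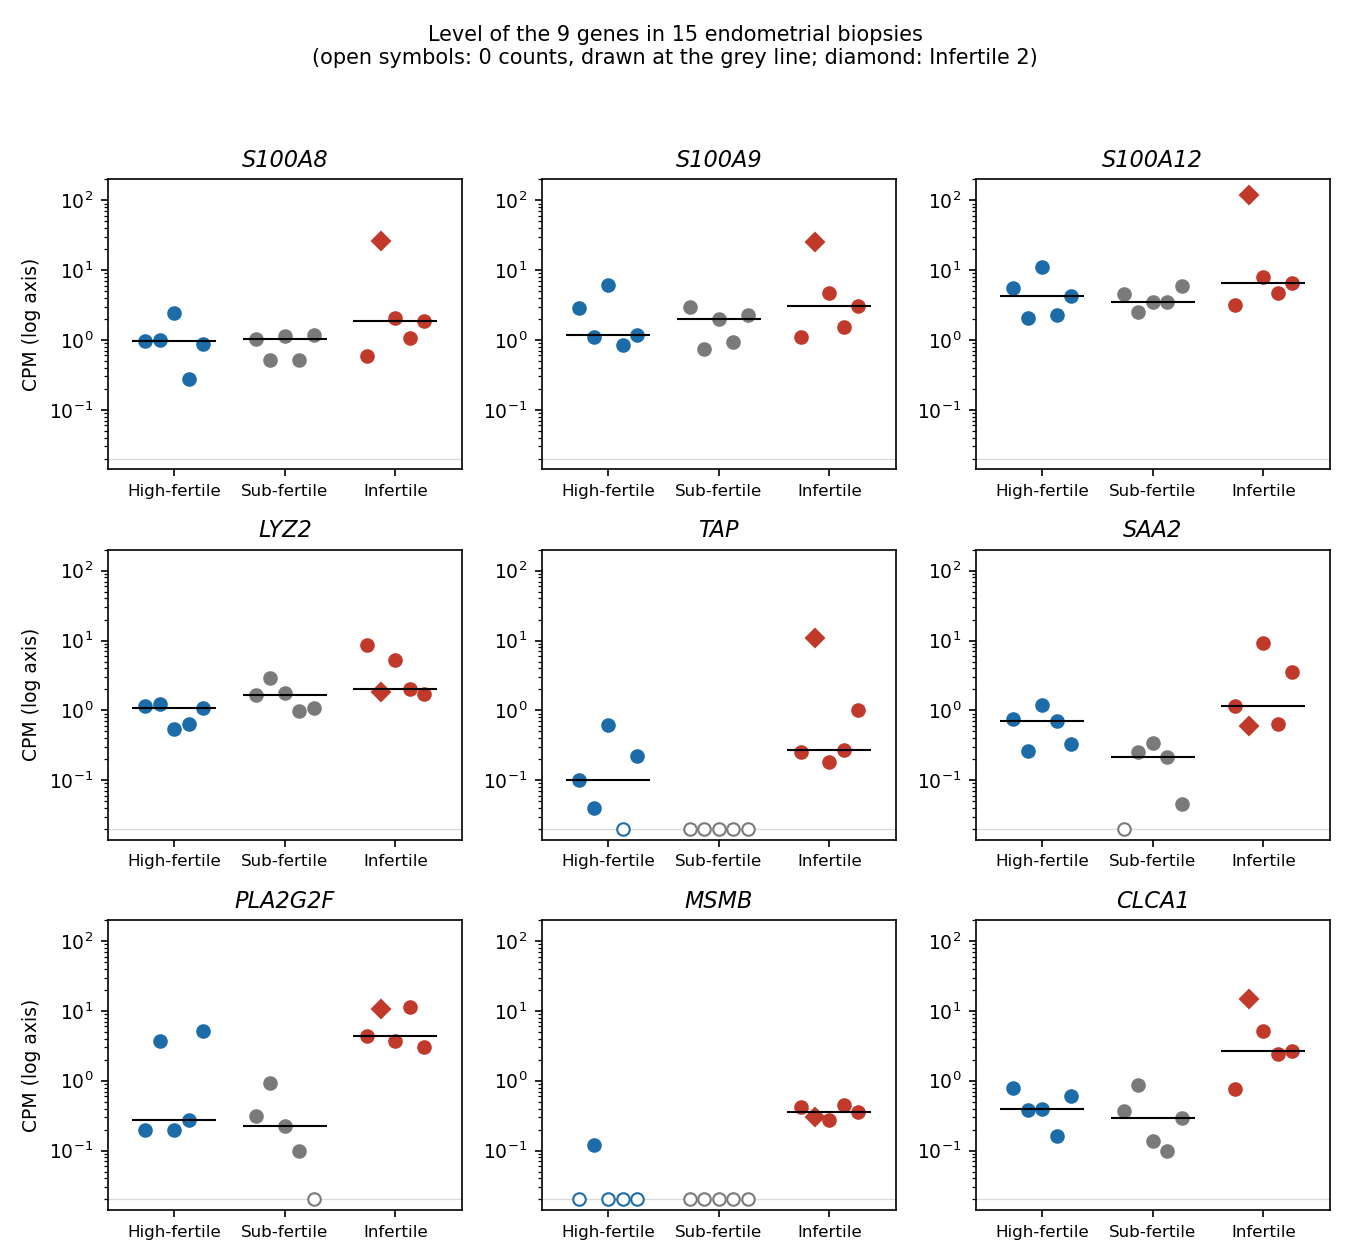
Levels of the 9 genes in the 15 libraries, on a log axis of CPM (count over library total and TMM factor), by fertility class, 1 point a heifer. The horizontal bar is the class median, the diamond is Infertile 2, and open symbols at the grey line are libraries with 0 counts. MSMB has counts in all 5 Infertile and 1 High-fertile library, TAP in 0 Sub-fertile libraries, and the diamond lies far above the other points for S100A8, S100A9, S100A12 and TAP.

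The S100 genes were the most abundant of the group per unit of gene length. By the median FPKM (fragments scaled to gene length and library size, so that genes can be compared), S100A12 led in each class, at 4.42 in High-fertile, 3.71 in Sub-fertile and 6.43 in Infertile libraries. S100A8 had 2.42, 2.64 and 4.62 and S100A9 had 1.55, 2.74 and 3.95. S100A8 thus had the higher class median in High-fertile and Infertile heifers and S100A9 in Sub-fertile ones. Within single libraries the order was mixed. S100A8 over S100A9 was 0.637, 1.67, 0.735, 0.627 and 1.42 in High-fertile libraries 1 to 5. It was 0.672, 1.29, 1.08, 1.06 and 0.977 in Sub-fertile and 1.01, 1.97, 0.809, 1.30 and 1.17 in Infertile libraries. By median FPKM LYZ2 came after the S100 genes and SAA2 after LYZ2 in every class, at 1.11 and 1.01 in High-fertile libraries. CLCA1, PLA2G2F, TAP and MSMB had class medians under 1 FPKM throughout. These are low levels: at the High-fertile median of 0.0989 CPM, TAP rested on a handful of reads a library.

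S100A12 measured 5.59, 2.08, 11.2, 2.29 and 4.31 CPM in High-fertile libraries 1 to 5 and 4.49, 2.48, 3.50, 3.47 and 5.99 in the Sub-fertile ones. Infertile heifers had 3.14, 121, 7.93, 4.67 and 6.46 CPM. Infertile 2 was 10.8 times the next library of all 15, High-fertile 3, and supplied 85.1% of the Infertile reads of this gene. The other 4 Infertile libraries, at 5.55 ± 2.09 (SD, n = 4), overlapped the High-fertile class at 5.10 ± 3.73 (SD, n = 5) and the Sub-fertile class at 3.99 ± 1.33 (SD, n = 5).

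S100A8 repeated this layout at a lower level. High-fertile heifers had 0.964, 0.992, 2.43, 0.278 and 0.874 CPM, Sub-fertile heifers 1.04, 0.509, 1.14, 0.524 and 1.18, and Infertile heifers 0.586, 26.2, 2.04, 1.05 and 1.89. Infertile 2 was 10.8 times the next library, again High-fertile 3, and the remaining 14 overlapped between classes. S100A9 ranged from 0.835 to 6.22 CPM in High-fertile, 0.741 to 2.92 in Sub-fertile heifers, and 1.09 to 4.73 in Infertile 1, 3, 4 and 5. In Infertile 2 it reached 25.0. For this gene Infertile 2 was 4.02 times the next library.

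In log2 terms, with the standard error (SE) of the fit, Infertile against High-fertile differed by 2.51 ± 0.91 for S100A8, 1.54 ± 0.82 for S100A9 and 2.49 ± 0.91 for S100A12. Without Infertile 2 these differences were 0.32, 0.09 and 0.12. Against the Sub-fertile class they were 2.85 ± 0.93, 2.001 ± 0.83 and 2.84 ± 0.93, and without Infertile 2 they were 0.66, 0.55 and 0.48. The calgranulin difference between classes was thus mostly that of 1 heifer. Sub-fertile against High-fertile gave -0.34, -0.46 and -0.36 for S100A8, S100A9 and S100A12, and without High-fertile 3, the highest of its class for all of them, 0.18, 0.25 and 0.16.

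The 3 S100 genes moved together from heifer to heifer. In the RefSeq annotation of another assembly (ARS-UCD2.0, used for names and order alone) they are neighbours, with S100A12 between S100A8 and S100A9. Across the 15 libraries Spearman's rho was 0.92 for S100A8 with S100A9, 0.86 for S100A8 with S100A12 and 0.92 for S100A9 with S100A12, and without Infertile 2 it was 0.90, 0.83 and 0.90. Their proportions were less fixed: the FPKM of S100A12 was 0.855 to 3.35 times that of S100A8, above 1 in 14 of 15 libraries, and Infertile 2 at 1.88 lay at the median of 1.88. S100A8 over S100A9 ran from 0.627 to 1.97, with Infertile 2 the highest. Correlations here share the libraries and their scaling and are descriptions.

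The 3 genes nearest in pattern to each calgranulin were other calgranulins, TARM1, C18H19orf40 (for S100A8, with 0.88) and CXCR2 (for S100A12). TARM1, an activating receptor of myeloid cells, had rho of 0.91 with S100A8, 0.925 with S100A9 and 0.89 with S100A12. CXCR2, the chemokine receptor that draws neutrophils, had 0.81, 0.86 and 0.89. The summed level of all neutrophil markers did not follow the 3 genes in this way, with rho of -0.12, -0.06 and 0.19, and -0.38, -0.31 and 0.0022 without Infertile 2. Single markers of that list differed from the sum, as given below.

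Of 21 neutrophil markers in the table, 11 were tested and CATHL1 was at 0 in every library. Their summed level was 55.7 to 212 CPM in High-fertile, 29.8 to 101.4 in Sub-fertile heifers, and 65.1 to 144 in Infertile 1, 3, 4 and 5. Infertile 2 had 589 CPM. Most of that sum is LTF (lactoferrin, an iron-binding protein that gland epithelium also secretes), at 528 CPM in Infertile 2 and 3.99 to 185 elsewhere. LTF itself had rho of -0.27, -0.28 and -0.02 with S100A8, S100A9 and S100A12, and -0.56, -0.57 and -0.26 without Infertile 2. CXCR1 had 0.65, 0.68 and 0.77, and 0.56, 0.60 and 0.71 without Infertile 2. CSF3R had 0.66, 0.49 and 0.44, and 0.58, 0.37 and 0.31 without it. The part of LTF in the rho of the sum was not tested. Without LTF, a step added after the values were seen, the neutrophil sum was 61.0 CPM in Infertile 2 and at most 44.0 in the others. CXCR1 (3.44 CPM) and CXCR2 (9.68 CPM) were highest in Infertile 2, against at most 1.36 and 4.48 in the others. CSF3R had 10.6 CPM there and nearly as much, 10.1 CPM, in High-fertile 3. Of the 11 tested neutrophil markers, 6 were highest in Infertile 2, as were 15.5% of all tested genes. The granule enzyme genes MPO and ELANE, made by neutrophil precursors in marrow, were near 0, at 0.0851 CPM each in Infertile 2 and at most 0.328 and 0.0838 elsewhere. In a biopsy, more cells of a type and more RNA per cell cannot be told apart, and the part of neutrophils in the S100 levels was not tested.

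**Figure D2:**
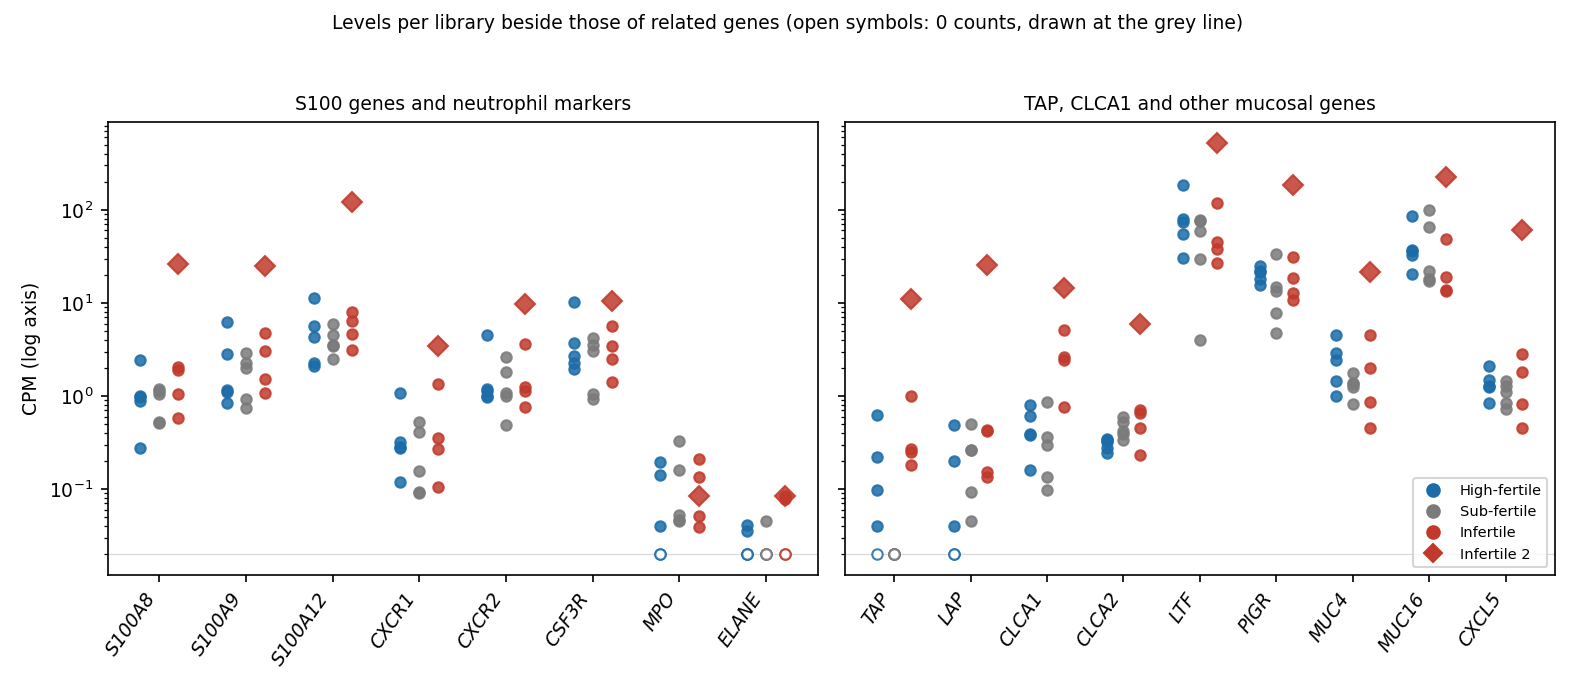
Levels by library (log axis, CPM) of the 3 S100 genes beside neutrophil markers (left) and of TAP and CLCA1 beside other mucosal genes (right), with the classes as colours, Infertile 2 as a diamond and 0 counts as open symbols at the grey line. Infertile 2 is the highest library for S100A8, S100A9, S100A12, CXCR1 and CXCR2, and by little for CSF3R (10.6 against 10.1 CPM). It is also the highest for TAP, LAP, CLCA1, CLCA2, LTF, PIGR, MUC4, MUC16 and CXCL5, while MPO and ELANE lie near 0 in all libraries.

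TAP, the beta-defensin, was read in 4 of 5 High-fertile, 0 of 5 Sub-fertile and 5 of 5 Infertile heifers. Its levels were 0.0989, 0.0397, 0.625, 0 and 0.224 CPM in High-fertile and 0.251, 11.04, 0.181, 0.272 and 0.996 CPM in Infertile libraries. Infertile 2 alone supplied 519 of the 592 Infertile reads, 11.1 times the level of the next library. The other 4 Infertile heifers, at 0.425 ± 0.382 CPM (SD, n = 4), overlapped the High-fertile class at 0.197 ± 0.254 (SD, n = 5).

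Against the Sub-fertile class, pooled over 5 libraries with a floor of 3 counts, TAP was at least 198-fold higher in Infertile heifers and at least 30.7-fold higher without Infertile 2. It was at least 16.2-fold lower in Sub-fertile than in High-fertile heifers, a class in which 35 of the 52 reads came from High-fertile 3. Infertile against High-fertile the log2 difference was 3.65 ± 1.40 (SE), and 1.06 without Infertile 2. The Sub-fertile class was therefore the low one, with no overlap with the Infertile libraries, whereas High-fertile and Infertile libraries overlapped.

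TAP belongs to the beta-defensin family, with 37 entries in the table, of which 14 were at 0 throughout and 4 were tested. Of these, LAP (lingual antimicrobial peptide) also peaked in Infertile 2, at 25.6 CPM against 0 to 0.501 in the other 14 libraries. DEFB1 lay at 0.235 CPM on average in High-fertile, 0.339 in Sub-fertile and 0.358 in Infertile heifers, with 0.298 in Infertile 2. The fourth, LOC100296624, had 0.0425 CPM in Infertile 2 and 0.577 on average in its class. Bovine beta-defensins are close copies of each other, so reads may have been split between them and the level of TAP is uncertain.

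LYZ2 showed a different order. High-fertile libraries held 1.14, 1.25, 0.536, 0.637 and 1.08 CPM, Sub-fertile libraries 1.67, 2.92, 1.77, 0.983 and 1.07, and Infertile libraries 8.56, 1.83, 5.21, 2.04 and 1.74. All 5 Infertile libraries lay above all 5 High-fertile ones, whose class means were 3.88 ± 2.99 and 0.927 ± 0.319 (SD, n = 5 each). The Sub-fertile mean of 1.68 ± 0.774 fell between and overlapped both. LYZ2 was the only gene of the 9 with a Sub-fertile mean above the High-fertile one, by 0.86 ± 0.48 (log2, SE). By class median this also held for S100A8 (1.04 against 0.964 CPM) and S100A9 (1.98 against 1.16 CPM).

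Infertile against High-fertile, LYZ2 differed by 2.06 ± 0.49 (log2, SE), and by 2.24 without Infertile 2, which ranked 5 of 15 for this gene. Infertile 1 carried the most weight: without it the difference was 1.55. Infertile against Sub-fertile gave 1.20 ± 0.48, 1.38 without Infertile 2 and 0.69 without Infertile 1.

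Ruminants carry several lysozyme genes, and the table has 12 entries of the C type, 7 of them tested. LYZ3 was rare but had the same order of class means as LYZ2, at 0.123, 0.164 and 0.490 CPM in High-fertile, Sub-fertile and Infertile heifers. LYZ, the lysozyme of macrophages and secretions, had means of 7.27, 7.45 and 9.52 CPM. LYZ1 had means of 26.7, 26.7 and 21.2 CPM, and had its lowest level in Infertile 2, at 2.62 CPM. The other 3 tested entries went the other way there, each highest of the 15 in Infertile 2: LOC781146 at 98.7 CPM against at most 41.2, LOC785803 at 14.9 against at most 4.73 and LOC617219, the tracheal isozyme, at 13.8 against at most 6.64. A further entry described as lysozyme C-2, LOC787241, held 27 reads in all. These copies may share reads, so LYZ2 is also uncertain.

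SAA2 was low in Sub-fertile heifers and high in 2 Infertile ones. High-fertile libraries held 0.742, 0.258, 1.20, 0.696 and 0.325 CPM, Sub-fertile libraries 0, 0.255, 0.341, 0.213 and 0.0455, and Infertile libraries 1.15, 0.595, 9.17, 0.642 and 3.50. The high Infertile heifers were 3 and 5, both of the technical set of 5, whose 3 Sub-fertile members were all at or under 0.255 CPM. Every Infertile library exceeded every Sub-fertile one, and Infertile 2 ranked 8 of 15.

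The class means of SAA2 were 0.644 ± 0.377, 0.171 ± 0.144 and 3.01 ± 3.64 CPM (SD, n = 5 each) in High-fertile, Sub-fertile and Infertile heifers. Infertile against Sub-fertile the log2 difference was 4.10 ± 0.93 (SE), and 3.07 without Infertile 3. Infertile against High-fertile it was 2.22 ± 0.84, and 1.18 without Infertile 3. Sub-fertile against High-fertile it was -1.88 ± 0.88.

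In the more abundant members of the serum amyloid family the Infertile class was not the highest. SAA3, the isoform made outside the liver, averaged 70.7 CPM in High-fertile, 27.0 in Sub-fertile and 31.9 in Infertile libraries. M-SAA3.2, the mammary isoform, averaged 131, 52.6 and 109 CPM. Both had the Sub-fertile class lowest, as SAA2 did, at -1.39 ± 0.63 and -1.32 ± 0.41 (log2 against High-fertile, SE). Near-identical sequence within the family makes the split between these entries uncertain.

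PLA2G2F was read in all Infertile and High-fertile heifers and in 4 of 5 Sub-fertile ones, at a level that split the High-fertile class. High-fertile libraries held 0.198, 3.73, 0.196, 0.278 and 5.21 CPM, so that High-fertile 2 and 5 reached the Infertile range and the other 3 did not. Sub-fertile libraries held 0.313, 0.926, 0.227, 0.0983 and 0 CPM. Infertile libraries held 4.31, 10.6, 3.67, 11.5 and 3.06 CPM, each above every Sub-fertile value.

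Class means of PLA2G2F were 1.92 ± 2.38, 0.313 ± 0.363 and 6.62 ± 4.06 CPM (SD, n = 5 each). The log2 difference was 4.41 ± 1.13 (SE) for Infertile against Sub-fertile, 1.78 ± 0.99 for Infertile against High-fertile and -2.62 ± 1.06 for Sub-fertile against High-fertile. Without High-fertile 5 the last of these was -1.83 and the Infertile difference from High-fertile 2.57. Infertile 2 mattered little here, with 4.17 and 1.55 for the Infertile differences when it was left out. PLA2G2C, its neighbour in the annotation and the other tested group II enzyme, averaged 2.36, 1.45 and 1.49 CPM, highest in the High-fertile class.

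MSMB had 6 reads in the High-fertile class, all in High-fertile 2, 0 in the Sub-fertile class and 83 in the Infertile class. The Infertile reads were spread over the 5 heifers, with 20, 14, 12, 23 and 14, or 0.419, 0.298, 0.272, 0.448 and 0.357 CPM. Of the 9 genes it varied least among Infertile heifers, at 0.359 ± 0.0755 CPM (SD, n = 5), with all 5 above the 0.119 CPM of High-fertile 2. The Infertile level was at least 27.8-fold that of the Sub-fertile class, and at least 29.0-fold without Infertile 2. Infertile against High-fertile the log2 difference was 3.75 ± 0.91 (SE), and 3.81 without Infertile 2. That value rests on the 6 reads of High-fertile 2: without this library the class has no read, and the Infertile level was at least 23.6-fold that of the other 4 (floor of 3 counts over them; the fit then gave a log2 difference of 7.08, which is no bound). The counts of 0 in the other 4 High-fertile libraries allow up to 0.0536 to 0.0742 CPM, by library, which is below the level in High-fertile 2.

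CLCA1, the mucus-processing protein, measured 0.791, 0.377, 0.393, 0.159 and 0.610 CPM in High-fertile libraries and 0.365, 0.857, 0.136, 0.0983 and 0.296 in Sub-fertile ones. Infertile libraries held 0.754, 14.6, 5.16, 2.45 and 2.66 CPM. Infertile 2 to 5 were above all 10 other libraries, and Infertile 1 lay within the High-fertile and Sub-fertile ranges. Class means were 0.466 ± 0.242, 0.351 ± 0.304 and 5.13 ± 5.54 CPM (SD, n = 5 each), and 2.76 ± 1.82 over the Infertile heifers without Infertile 2.

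Infertile against High-fertile, CLCA1 differed by 3.46 ± 0.77 (log2, SE), and by 2.56 without Infertile 2. Infertile against Sub-fertile it differed by 3.87 ± 0.79, and by 2.98 without Infertile 2. High-fertile and Sub-fertile heifers differed by -0.41 ± 0.74, within the spread of either class. CLCA1 had the smallest edgeR p of all tested genes in Infertile against Sub-fertile, with an adjusted p of 0.998. It had been picked for differences between these classes, so nothing is read from that rank.

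CLCA2, which stands next to CLCA1 in the annotation, was also highest in Infertile 2, at 5.997 CPM against 0.234 to 0.712 in the other 14 libraries. For other mucus genes, 12 of 21 tested genes of a list of mucins and mucus proteins had their highest level there, and the list summed to 965 CPM against 242 to 843 in the others. MUC5AC and MUC5B, the gel-forming mucins, reached 9.70 and 87.8 CPM against at most 1.16 and 26.5. MUC4, a mucin anchored in the cell membrane, reached 21.5 against at most 4.51. TFF3, a trefoil peptide secreted with mucus, reached 50.5 against at most 14.9.

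PIGR, CXCL5 and some marker lists of other cells were also high in Infertile 2. PIGR, which carries IgA across epithelium, stood at 185 CPM against 4.71 to 33.9, and CXCL5, a chemokine for neutrophils, at 60.7 against 0.453 to 2.83. Monocyte and macrophage markers summed to 661 CPM against 152 to 355, with 4 of 14 tested markers highest there, and stromal fibroblast markers to 39338 CPM against 10159 to 30321, with 3 of 13 highest there. By summed level Infertile 2 ranked 3 of 15 for T and NK cell, 5 for B and plasma cell, 6 for ciliated, 7 for endothelial, 8 for smooth muscle and 10 for epithelial markers. EPCAM was low there, at 284 CPM against 277 to 776, and epithelial markers summed to 1715 CPM against 996 to 2569. The part of cell makeup in the levels of the 9 genes was not tested.

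**Figure D3:**
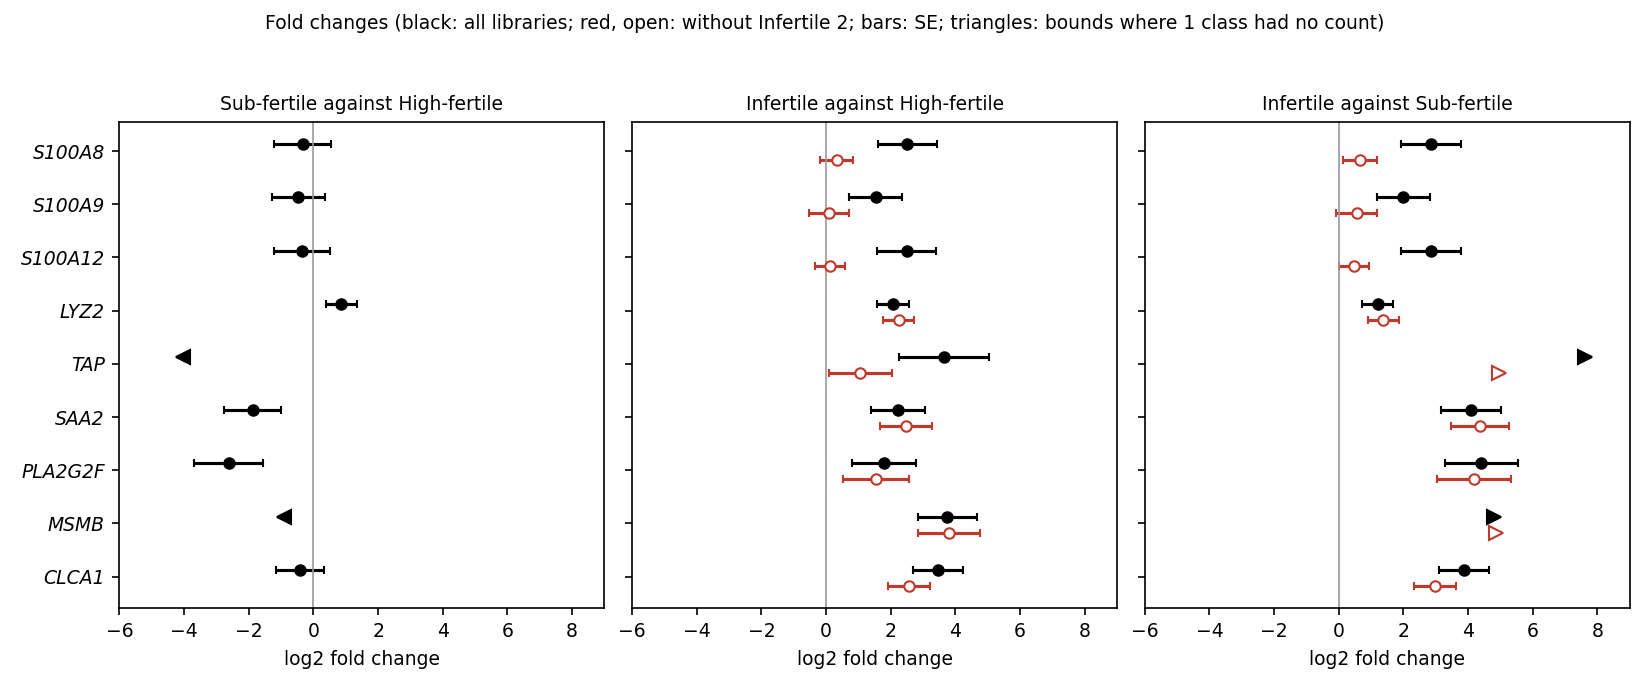
Log2 fold changes of the 9 genes in the 3 class comparisons, with all libraries (black) and without Infertile 2 (red, open), bars being the standard error of the edgeR fit. Triangles are the least fold, from a floor of 3 counts, where 1 class had no read, pointing away from 0. Without Infertile 2 the S100 genes lie between 0.09 and 0.66, while LYZ2, SAA2, MSMB and PLA2G2F move little.

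Across the whole table, edgeR called 0 of 19962 genes (0.0%) at an adjusted p under 0.05 in each comparison, and hence 0 of these 9. The smallest adjusted p of any gene was 0.121 for Sub-fertile against High-fertile, 0.435 for Infertile against High-fertile and 0.998 for Infertile against Sub-fertile. At an unadjusted p under 0.05 there were 2738, 2201 and 525 genes in the 3 comparisons. Such a p was reached by 3 of the 9, lower in Sub-fertile than in High-fertile heifers (TAP, SAA2 and PLA2G2F), where 7.14% of all genes were lower, and by 0 of 9 higher, where 6.58% were. It was reached by 7 of 9 higher in Infertile than in High-fertile heifers (not PLA2G2F and S100A9), where 7.14% of all genes were, and by 0 of 9 lower (3.89%). Against Sub-fertile heifers it was reached by 9 of 9 higher in Infertile ones, where 1.91% of all genes were, and by 0 of 9 lower (0.721%). The genes had been picked on these contrasts, so nothing is read from those counts.

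Classes did not overlap for LYZ2 and MSMB, 2 of 9, in Infertile above High-fertile, which held for 1.13% of all tested genes, and 0 of 9 lay wholly below (1.1%). They did not overlap for TAP, MSMB, SAA2 and PLA2G2F, 4 of 9, in Infertile above Sub-fertile, which held for 0.12%, and 0 of 9 lay wholly below (0.0852%). Between Sub-fertile and High-fertile heifers 0 of 9 were free of overlap, where 2.26% of all genes were free of it with the Sub-fertile class higher and 2.81% with it lower. The DESeq2 test, run as an alternative, called 2 of 9 in Infertile against High-fertile (CLCA1 and LYZ2; 0.17% of all genes) and 5 of 9 in Infertile against Sub-fertile (CLCA1, TAP, MSMB, SAA2 and PLA2G2F; 0.0551%). In Sub-fertile against High-fertile it called 0 of 9 (0.0952%). It gave no adjusted p for S100A8 and S100A12 in any comparison, nor for MSMB in Sub-fertile against High-fertile.

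The median log2 difference of the 9 was 2.49 for Infertile against High-fertile, with 9 of 9 above 0, and 1.55 without Infertile 2. For Infertile against Sub-fertile it was 3.87, with 9 of 9 above 0, and 2.98 without Infertile 2. For Sub-fertile against High-fertile it was -0.46, with 1 of 9 above 0. The medians over all tested genes were 0.04, 0.03 and 0.01. These comparisons share their classes pairwise and are not independent of each other.

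Within the technical set of 8, both Infertile libraries exceeded both Sub-fertile ones for 6 of 9 genes, all but the S100 genes, and all 4 High-fertile ones for CLCA1, LYZ2 and MSMB, 3 of 9. In that set the S100 genes were lower in Infertile than in High-fertile heifers, at -0.49 for S100A8, -0.85 for S100A9 and -0.36 for S100A12 (log2, 2 against 4 libraries). High-fertile 3 was the highest of the set for all of them, at 2.43, 6.22 and 11.2 CPM. The other High-fertile libraries of the set overlapped the Infertile ones. They held 0.278 to 0.992 CPM against 0.586 and 1.05 for S100A8, and 0.835 to 1.16 against 1.09 and 1.52 for S100A9. For S100A12 they held 2.08 to 4.31 CPM against 3.14 and 4.67. In the set of 5, both Infertile libraries exceeded all 3 Sub-fertile ones for 8 of 9, the S100 genes included, and not for LYZ2. In the set of 2, Infertile 2 exceeded High-fertile 1 for 8 of 9, all but SAA2.

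With the technical sets as a covariate, the Infertile differences from High-fertile were 2.41 for CLCA1, 1.65 for TAP and 1.30 for SAA2. They were 0.80 for S100A8, 0.30 for S100A9 and 0.68 for S100A12. LYZ2 (1.99), MSMB (4.02) and PLA2G2F (1.96) kept near their unadjusted values. The median of the 9 was then 1.65 for this comparison and 3.43 for Infertile against Sub-fertile.

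**Figure D4:**
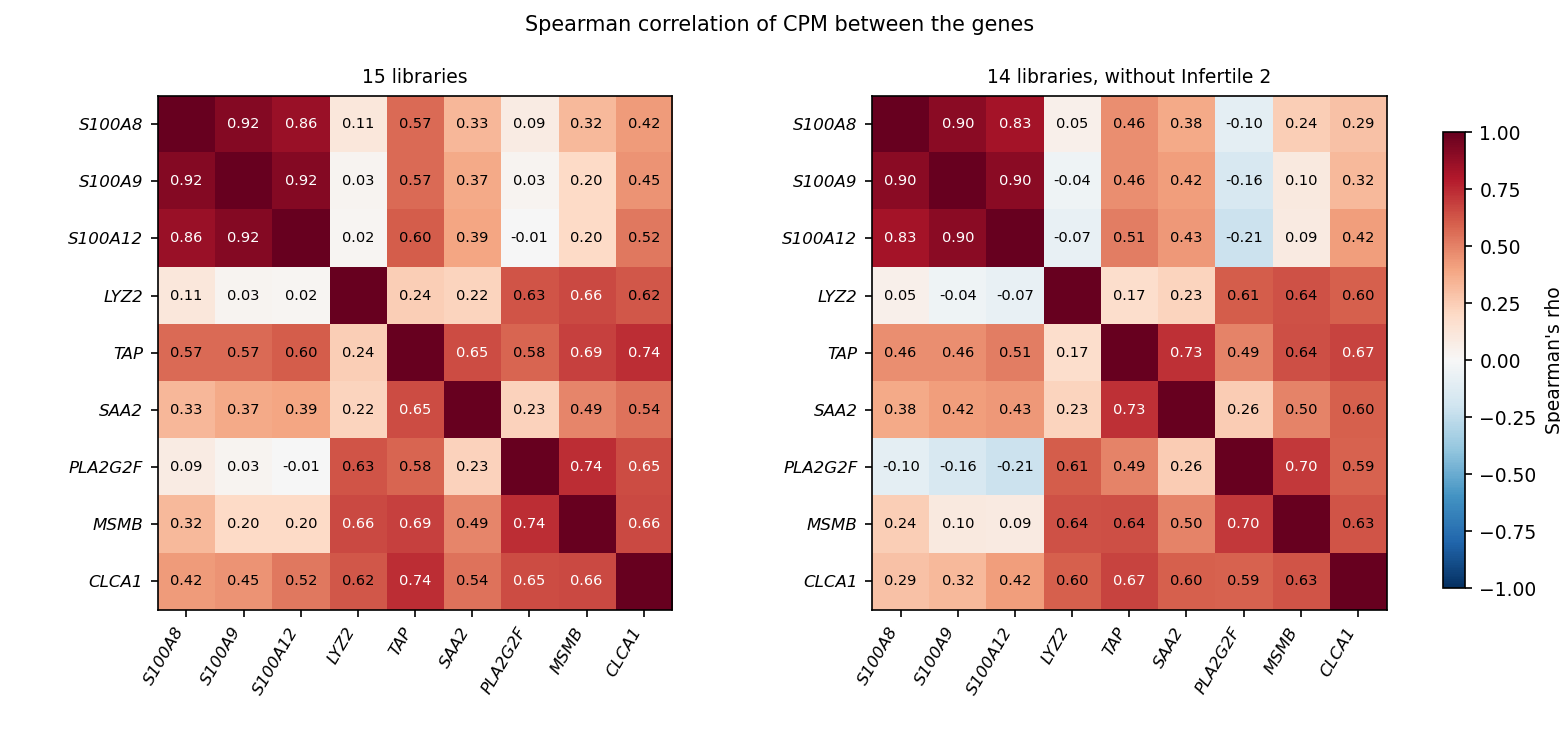
Spearman's rho between the 9 genes over the 15 libraries (left) and over 14 without Infertile 2 (right), coloured from -1 (blue) to 1 (red). The 3 S100 genes form a block at 0.86 to 0.92 on the left, and their rho with LYZ2 and PLA2G2F is between -0.01 and 0.11.

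From heifer to heifer the genes formed a calgranulin block and a looser group. LYZ2, PLA2G2F, MSMB and CLCA1 had rho between 0.62 and 0.74 with each other, highest for PLA2G2F with MSMB at 0.74. TAP had 0.74 with CLCA1, 0.69 with MSMB, 0.65 with SAA2 and 0.57 to 0.60 with the S100 genes. The S100 genes had -0.01 to 0.11 with LYZ2 and PLA2G2F. The genes of the looser group had been picked for differences between classes, above all higher levels in Infertile heifers.

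Among the 3 nearest genes of each of the other members were GGA2 (0.87), a Golgi sorting adaptor, for LYZ2, CCKAR (0.85), the cholecystokinin A receptor, for TAP, and CDC25C (0.79), a mitotic phosphatase, for CLCA1. For MSMB they were the uncharacterized LOC104972515 (0.83), SLAIN1 (0.82), a microtubule protein, and PPME1 (0.77), a phosphatase methylesterase. AP3B2 (0.74), an adaptor of vesicle sorting, stood near SAA2, and PLAU (0.75), the urokinase, near PLA2G2F. The likeness was over 15 libraries, on log2 CPM.

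Other genes of the same functions were taken as lists and counted without the 9. Of 20 tested epithelial antimicrobial genes, 0 passed the threshold, 12 were higher and 8 lower in Infertile than in High-fertile heifers (median log2 0.46), and 15 were higher and 5 lower than in Sub-fertile heifers (0.44). In Sub-fertile against High-fertile heifers, 10 were higher and 10 lower (-0.01). Of 21 tested mucins and mucus proteins 0 passed, with 13 higher and 8 lower (0.43), 15 higher and 6 lower (0.63), and 7 higher and 14 lower (-0.27) in the same order. The antimicrobial list summed to 978 CPM in Infertile 2 and 171 to 575 in the other 14 libraries, and 8 of its 20 genes were highest there.

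Of the 13 tested partners and receptors of the S100 alarmins, 0 passed. AGER, the receptor that binds S100A12, was lower on average in Infertile (10.6 CPM) and Sub-fertile (10.2) than in High-fertile heifers (17.4). TLR4, a receptor for S100A8 and S100A9, differed by 0.27 ± 0.15 (log2, SE) between Infertile and High-fertile heifers. The list was higher for 5 and lower for 8 genes in Infertile against High-fertile (median -0.24), 8 and 5 against Sub-fertile (0.02), and 4 and 9 in Sub-fertile against High-fertile (-0.34).

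Acute phase genes (7 tested) had medians of -0.05, 0.24 and -0.43 in that order, secreted phospholipases A2 (6 tested) 0.09, 0.12 and -0.35, and mucosal cytokines and receptors (14 tested) 0.18, 0.25 and -0.28. No gene of these lists passed the threshold. The neutrophil list had 8 of 11 higher in Infertile than in High-fertile heifers (median 0.18), 11 of 11 higher than in Sub-fertile heifers (0.27) and 2 of 11 higher in Sub-fertile than in High-fertile heifers (-0.46).

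Among lists that mark other cells, 0 genes passed in any comparison. Ciliated epithelium markers were higher in Infertile than in High-fertile heifers for 15 of 15 tested genes (median 0.95). Their summed level had rho of 0.77 with S100A8, 0.69 with S100A9 and 0.57 with S100A12. B and plasma cell markers were lower for 10 of 10 in Infertile (-1.26) and in Sub-fertile heifers (-2.81) than in High-fertile ones. Smooth muscle markers were lower for 10 of 10 in Sub-fertile than in High-fertile heifers (-1.06).

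Medians for Infertile against High-fertile were 0.08 for epithelial, -0.18 for monocyte and macrophage, -0.11 for T and NK cell, -0.50 for endothelial and -0.11 for stromal fibroblast markers. Endothelial markers summed against LYZ2 with rho of -0.70. Whether the makeup of the biopsies has a part in the differences of the 9 genes was not tested.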

How the data were processed

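Endometrial mRNA of 15 heifers was sequenced from stranded TruSeq libraries, per the labels. The authors deposited whole-number read counts per gene. Beside them stand deposited FPKM values, whose scale lay within 0.402% of the library totals. The submitters' processing notes name FastQC, Subread, featureCounts, edgeR and the genome build UMD3.1. Tool versions, the use of strand and the counting of multi-mapping reads are not given in the sources used. The names of 27 entries read as dates, and 4555 entries are at 0 throughout.

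Counts were tested with edgeR 4.0.16 in R 4.3.3: filterByExpr by class, TMM, 1 quasi-likelihood model (robust) of class means over 15 libraries with 12 residual degrees of freedom, two-sided, Benjamini-Hochberg over 19962 genes, threshold 0.05. CPM is the count over library total and TMM factor. FPKM served only to compare genes per length. The fit was also run on simulated counts, with changes set in more abundant genes and in Sub-fertile against High-fertile alone. That simulation held no outlying library and no technical sets. It does not bear on rare genes such as MSMB or on the Infertile comparisons.

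The 9 genes and 15 gene lists were chosen with earlier results of these data known. Named genes are the 9, genes of a fixed set, the 2 of smallest p in each list and the 3 nearest by Spearman correlation of log2 CPM (prior count 2); genes named for their level in Infertile 2 or for their family were chosen after their values were seen. Technical sets came from average linkage on 372 pseudogene and ribosomal RNA entries, with the tree cut into 3 sets, and not from a batch in the labels. Alternatives were DESeq2 1.42.0, its size factors in edgeR, no filter, the sets as covariate, leaving out the set of 2, each library left out and, chosen after seeing the data, the set of 8 alone and, for MSMB, a bound without High-fertile 2. No coordinates or sequences are given, since no reference of the files' build was used.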

Additional observations from a re-analysis of the deposited data

Results flagged for a closer look

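A gap test for a library far from the rest of its class was run on 25 groups of 5 libraries with counts, and 5 stood out. The test's nominal rate of about 1 in 20 cannot be set against that count. The genes had been picked above all for higher levels in these same Infertile libraries. The test used CPM rather than log values, and S100A8, S100A9 and S100A12 moved together, so their groups are not independent. The groups that stood out are therefore given as descriptions. In 4 of them Infertile 2 was far above the other Infertile heifers: TAP at 11.04 CPM, S100A8 at 26.2, S100A9 at 25.0 and S100A12 at 121. The other was MSMB in High-fertile 2, at 0.119 CPM, the one High-fertile library with reads of that gene. With the other 4 at 0, the gap equals the whole range whatever its size, so this case says nothing about how far the library lies from the rest.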

How the results depend on the processing

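Counts of genes past the threshold were 0 in each comparison with DESeq2's size factors in edgeR, without the filter and with the technical sets as covariate. For Sub-fertile against High-fertile the count was 3 without the technical set of 2 and 0 to 3 with 1 library left out (3 without High-fertile 1, 1 without High-fertile 3). DESeq2 called 19 genes there, 34 in Infertile against High-fertile and 11 in Infertile against Sub-fertile. Within the set of 8 the sign turned for Infertile against High-fertile of S100A8 (-0.49), S100A9 (-0.85) and S100A12 (-0.36) and for Infertile against Sub-fertile of S100A8 (-0.0091) and S100A9 (-0.15). High-fertile 3 had the highest level in that set for each S100 gene, and the set was not fitted without it. With 1 library left out, Sub-fertile against High-fertile ran from -0.59 to 0.18 for S100A8, -0.72 to 0.25 for S100A9 and -0.56 to 0.16 for S100A12, above 0 without High-fertile 3 alone. The cause was not tested. Of 431 alternative values of the 9 genes, 150 under other settings and 266 with 1 library left out kept their sign and side of the threshold, and 7 passed it, all with DESeq2. Where DESeq2 gave no adjusted p, the value was counted as not past the threshold, although its side is unknown. This was so for S100A8 and S100A12 in each comparison and for MSMB in Sub-fertile against High-fertile. No paired analysis was possible because the labels give no replicate numbers. Depth limits MSMB and TAP, with at most 83 and 592 reads in a class.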
